A study of Homo sapiens with 22 samples.

Results

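Distal ETS1 regions are stretches of chromatin that were immunoprecipitated with an ETS1 antibody in TC-32 cells and that lie away from annotated transcription start sites (TSSs). The members were chosen by their presence in the 4 ETS1 peak lists and by their position. Peaks of the 4 lists on chromosomes 1 to 22 and X were merged wherever they shared at least 1 bp, which gave 2706 regions. Of these, 320 had a centre more than 1 kb from every TSS of GENCODE release 44. The 24 that were in both siFLI1 lists and in at least 1 siNEG list were left out, so that 296 distal regions were described. ETS1 presence and the ETS1 fold of a peak therefore entered the choice, and they are given as descriptions with no test between the arms.

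The cell line TC-32, established from Ewing sarcoma, was used to ask how the fusion protein EWSR1::FLI1 regulates ETS1. Cells were reverse transfected with siRNA at 20 nM, either the control siNEG or siFLI1, which targets FLI1 and served to deplete the fusion. Each arm had 2 libraries for ETS1, 2 for H3K27ac and 2 for H3K4me3, and a further H3K27ac library per arm carried an antibody label with ab4729. That label also holds the catalogue number given for the other H3K27ac libraries, so which antibody was used in this pair, called the ab4729 pair, is uncertain. All groups came from a single cell line, and no library of untransfected cells was among the samples. The labels did not say whether replicates were separate cultures. The p-values for H3K27ac and H3K4me3 therefore measure only the spread between these libraries, which may be technical.

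ETS1 belongs to the ETS family of transcription factors, whose DNA-binding domain recognises a core of GGAA within a longer site. FLI1 is a member of the same family, and its ETS domain is kept in EWSR1::FLI1, which also binds tandem GGAA repeats. H3K27ac marks active promoters and enhancers, whereas H3K4me3 is strongest at the starts of transcribed genes. A region away from known starts with H3K27ac and little H3K4me3 has the usual appearance of an active enhancer.

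Windows of 101 bases centred on the strongest ETS1 summit are printed for 8 members that show the range of sequence under distal ETS1 peaks, followed by a repeat that lies beside a summit. All are from the plus strand of hg38. In the first group of 6, capitals mark an ETS site, which is CCGGAAG or CCGGAAA on either strand. They are shown because these letters come closest to the known ETS1 site, and they include 2 regions found in a siNEG list only.
MIR4425, nearest coding gene RUNX3, chr1:25022450-25022550: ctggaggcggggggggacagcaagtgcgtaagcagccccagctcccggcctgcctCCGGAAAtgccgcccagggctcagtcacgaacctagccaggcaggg
AKR1C3 intron, chr10:5041295-5041395: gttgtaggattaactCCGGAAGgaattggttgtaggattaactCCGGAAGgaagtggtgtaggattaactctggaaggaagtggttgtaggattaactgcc
VAX1 intron, chr10:117134742-117134842: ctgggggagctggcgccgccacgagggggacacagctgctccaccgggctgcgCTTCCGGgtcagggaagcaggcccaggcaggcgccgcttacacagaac
Intergenic, nearest coding gene BCORL1, chrX:130060528-130060628: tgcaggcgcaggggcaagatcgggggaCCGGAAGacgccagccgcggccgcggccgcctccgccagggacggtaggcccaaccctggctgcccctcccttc
JARID2 intron, chr6:15439652-15439752: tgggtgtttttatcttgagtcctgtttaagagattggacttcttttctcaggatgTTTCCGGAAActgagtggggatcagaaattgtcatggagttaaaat
EFR3B intron, chr2:25076712-25076812: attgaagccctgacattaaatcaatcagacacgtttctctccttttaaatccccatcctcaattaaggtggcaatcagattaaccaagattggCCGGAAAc

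The second group shows members without an ETS site in the window. Capitals mark a GC box, which is GGGCGG on either strand and is the site of the Sp/KLF factors. CNN2 was the member with a GC box of highest fold, and ARL15 had the highest fold of all, reached in siFLI1 replicate 2, and neither motif.
CNN2 intron, chr19:1028644-1028744: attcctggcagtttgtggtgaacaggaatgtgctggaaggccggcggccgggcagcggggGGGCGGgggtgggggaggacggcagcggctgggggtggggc
ARL15 intron, chr5:54295961-54296061: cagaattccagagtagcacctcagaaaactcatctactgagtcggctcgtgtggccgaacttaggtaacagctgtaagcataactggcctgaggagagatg

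The last sequence is the only tandem GGAA repeat of 4 or more units near a member, the kind of element that the fusion binds. Capitals mark its 5 units. The stretch is 60 bases long and is not centred on the summit, which lay 58 bp beyond its last base.
Intergenic, nearest coding gene FGF18, chr5:171495256-171495315: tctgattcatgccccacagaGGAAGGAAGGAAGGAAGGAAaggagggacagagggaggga

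The ETS1 lists differed greatly in length. They held 302 and 208 peaks in siNEG, and 1633 and 2635 peaks in siFLI1, after peaks off the main chromosomes were set aside. Tag heights at summits, recovered from the deposited values, had medians of 23.5 and 22 in siNEG and of 22 and 17 in siFLI1. Between the 2 siFLI1 lists, heights differed by less than sampling noise (chi-square per degree of freedom 0.418 over 495 regions, lower-tail p = 3e-33, against 0.827 over 73 regions and p = 0.15 in siNEG). These regions had heights of 50 to 500 tags summed over the 2 lists. At 100 to 500 tags the contrast was weaker, with chi-square per degree of freedom 0.530 over 29 regions (lower-tail p = 0.020) in siFLI1 and 0.748 over 9 (p = 0.35) in siNEG. The peak names inside the list of siFLI1 replicate 1 carried the number 2. The siFLI1 ETS1 lists were therefore counted as 1 sample, and no ETS1 value is averaged over them or tested between the arms.

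Presence of the 296 members followed the siFLI1 lists. In all, 105 members (35.5%) were in both siFLI1 lists and no siNEG list, 163 (55.1%) were in siFLI1 replicate 2 only, and 14 were in siFLI1 replicate 1 only. A further 11 were in siNEG lists only, and 3 were in 1 siFLI1 list together with siNEG. This order moved with list length. When each list was limited to its 208 strongest peaks, the same rule gave 32 members, of which 21 were in siNEG lists only, 7 in siFLI1 lists only and 4 in both arms. The 2 siFLI1 lists also reached down to different heights. Replicate 1 held no peak below 12 tags and no interval shorter than 275 bp, whereas replicate 2 went down to 9 tags and 155 bp. Of the 163 members in replicate 2 only, 25 (15.3%) had fewer than 12 tags.

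Fold, which in the authors' lists is the height of a peak divided by the local background, was modest at the members. Among the 105 regions in both siFLI1 lists it ran from 2.99 to 10.4 in replicate 1, with a median of 5.94, and from 3.08 to 13.0 in replicate 2, with a median of 6.93. Their median tags at the summit were 20 in replicate 1 and 18 in replicate 2, so the higher fold in replicate 2 did not go with more tags. The recovered background over all peaks of each list had medians of 2.55 and 1.52. The 24 distal regions that the rule left out had higher medians of 7.72 and 10.6 in those lists. Regions in replicate 2 only had a median fold of 5.71 and a median of 15 tags at the summit.

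**Figure D1:**
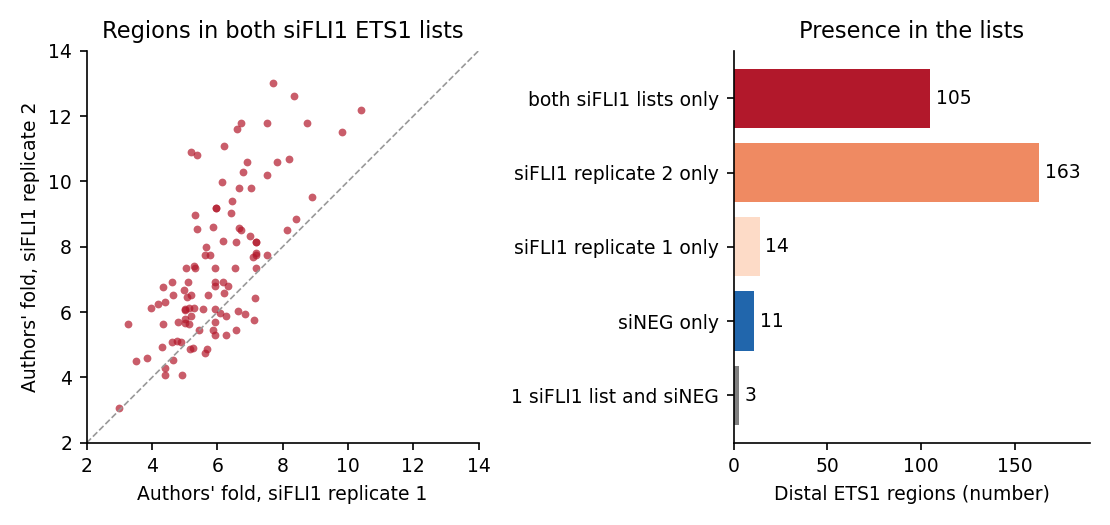
Left, the authors' fold in siFLI1 replicate 1 (x axis) and replicate 2 (y axis) for the 105 distal ETS1 regions present in both siFLI1 lists and no siNEG list, 1 point per region, with a dashed line of equal fold. Right, the number of the 296 distal regions in each presence class (bars), with siFLI1 replicate 2 only the most frequent at 163.

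The leading regions by fold in both siFLI1 lists differed in their marks. The highest fold in replicate 2 was in an intron of ARL15, a small GTPase-like protein of the ARF family (chr5:54295846-54296163), with 7.72 in replicate 1 and 13.0 in replicate 2, from 25 and 31 tags. An intron of CNN2, which encodes the actin-binding protein calponin 2, held a region of 8.34 and 12.6 (chr19:1028179-1028970, 1884 bp from the TSS). The region 4115 bp from a TSS of ID3, an inhibitor of basic helix-loop-helix factors, reached 10.4 and 12.2 (chr1:23554702-23555217). These 3 lay above the median of their class in both lists.

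Regions near ANO1 and SEMA3B had the same fold of 11.8 in replicate 2 and 6.72 and 7.51 in replicate 1. ANO1 encodes a calcium-activated chloride channel, and its region lay 29738 bp away (chr11:69956022-69956315). The region of SEMA3B, a secreted semaphorin, lay 2638 bp from its TSS (chr3:50264746-50265093). H3K27ac was listed at both regions in siNEG replicate 1 and in both siFLI1 replicates, but not in siNEG replicate 2.

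In siFLI1 replicate 2 only, the highest fold was 9.78, at 2 regions in introns of unnamed lncRNA genes, chr17:30667960-30668261 and chr4:111639650-111639816. Introns of ARHGAP45 (9.37) and RASA4B (9.04) and regions 2082 bp from ZBTB32 (9.37) and 22603 bp from SMIM3 (8.84) followed. None of these 6 had H3K27ac in any of the 4 replicated lists, of either arm. H3K4me3 was listed at ARHGAP45 in all 4 lists, at ZBTB32 and SMIM3 in 1 list of each arm, and at the other 3 in none. In the ab4729 pair, the chr17 region alone had a peak, in siFLI1. RASA4B has a near-identical copy, so the origin of its reads is uncertain. In siFLI1 replicate 1 only, fold did not exceed 5.94, the value in an intron of GSE1. The next were regions in an intron of an unnamed lncRNA gene 72194 bp from the TSS of SRGAP2B (5.63), at chr2:94272942-94273350 (5.63), in introns of SPC24 (5.61) and ZNF462 (5.60), and at chr2:70142432-70142820 (5.17). SRGAP2B belongs to a duplicated gene family. The summit windows of its region and of chr2:94272942-94273350 each hold the letters caaaaagcc more than once, so the origin of the reads at both is uncertain.

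Of the 11 regions in siNEG lists only, 1 was in both siNEG lists, at chr5:163624688-163624904, with folds of 9.18 and 8.85 from 25 and 22 tags. It was intergenic, 108973 bp from the nearest coding gene, MAT2B. The other leading ones were in an intron of LINC01968 (9.62), at chr3:107953696-107953897 (8.78), at chr2:12778970-12779141 (8.47), in an intron of EFR3B (8.15) and in an intron of CASC20 (6.99). The summit window at chr3:107953696-107953897 holds the letters gcttacatacaaaacatgggg more than once, so the origin of its reads is uncertain. The 3 regions with both arms lay in introns of PRRX1 and RORA and beside the ribosomal gene RNA5-8SN2. PRRX1, a homeobox factor of mesenchyme, had a fold of 10.1 in siNEG replicate 2 and 4.60 in siFLI1 replicate 2. RORA, a nuclear receptor, had 7.70 and 6.56 in the same lists.

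A set of 4 members lay next to the 5.8S ribosomal genes on chromosome 21. The one beside RNA5-8SN2 (chr21:8216776-8217061) had 73 and 54 tags in siNEG and 138 in siFLI1 replicate 2, but folds of only 3.05, 4.48 and 4.77. Another, beside RNA5-8SN1 (chr21:8442288-8442465), had 141 tags and a fold of 2.71. Ribosomal DNA is present in many copies, so their reads cannot be assigned to one place. No histone mark was listed at any of the 4 in the replicated lists.

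The members were mostly intronic or intergenic. The centre of 153 regions (51.7%) lay in an intron, 130 (43.9%) were intergenic, 7 lay in a UTR exon, 4 in a coding exon and 2 in a non-coding exon. Many were still close to genes: 85 lay 1 to 2 kb from a TSS, 64 at 2 to 5 kb, 52 at 5 to 10 kb and 95 beyond 10 kb, with a median of 4950 bp. The nearest TSS belonged to a protein-coding gene for 153 members and to an lncRNA for 86. Regions in both siFLI1 lists lay nearer, at a median of 2616 bp, than those in replicate 2 only, at 6882 bp, and those in siNEG lists only, at 16735 bp.

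The 1 kb limit cut through a continuous range of distances. Just inside it were regions in introns of COL5A3 and ZNF462, both at 1006 bp, and of FKBP5 at 1013 bp. Just outside were regions near DPCD at 984 bp, ZBTB2 at 967 bp and PTMS at 949 bp. The annotation also mattered: 16 of the 286 members outside chromosome 8 (5.59%) had a RefSeq gene start within 1 kb, including the regions near ID3, PAX5, TRERF1, RAI1 and 2 at GLI2. RefSeq here is the table of gene starts on hg38, which was not used for chromosome 8.

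Chromosome 19, which is rich in genes, held 50 members (16.9%, exact 95% binomial interval 12.8 to 21.7). It held 8.81% (7.63 to 10.1) of the 2077 ETS1 regions within 1 kb of a TSS that passed the same presence rule. These 2077 are called promoter regions in what follows. Among members in both siFLI1 lists the share on chromosome 19 was 23.8% (16 to 33.1). Intervals over regions cover counting error only, and regions of 1 list are not replicates. Another ETS1 region lay within 5 kb of 58 members (19.6%), as for the pair of members at GLI2, a transcription factor of Hedgehog signalling, which were both 1 to 2 kb from the same TSS. For promoter regions this share was 15.0%.

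H3K27ac overlapped more than every second member in most lists. The share of the 296 members with an H3K27ac peak was 54.7% and 49.7% in siNEG and 59.8% in each siFLI1 list. Both siFLI1 values lay above both siNEG values, and the arms did not overlap. The mean was 52.2% ± 3.58 (SD, n = 2 lists) in siNEG and 59.8% ± 0 in siFLI1, a difference of 7.60 percentage points that had an exact permutation p of 0.33, the smallest that 2 lists against 2 can give. With 4 tests adjusted together by Benjamini-Hochberg it was 0.44, so the difference did not pass a threshold. Of the 296 members, 285 were in a siFLI1 ETS1 list, so the arms were compared at regions chosen largely in siFLI1. Promoter regions passed the same presence rule. The effect of this choice on the difference was not tested. The zero SD hides turnover between replicates: 11 members were in the first siFLI1 list only and 11 in the second only, and 166 were in both.

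The direction was the same at promoter regions but not in every class of members. At promoter regions the shares were 78.7% and 72.1% in siNEG and 82.0% and 80.3% in siFLI1, a difference of 5.73 points. At members in both siFLI1 ETS1 lists they were 77.1%, 70.5%, 80.0% and 82.9%, a difference of 7.62 points. At members in replicate 2 only they were 42.3%, 39.9%, 49.1% and 47.9%. These are subsets of the 296 members scored on the same lists, not separate evidence. The 14 members in replicate 1 only had 78.6%, 50%, 78.6% and 85.7%, so their arms overlapped. The 11 in siNEG lists only had 9.09%, 9.09%, 9.09% and 0%, a difference of −4.55 points in the other direction. The difference between these sets in the size of the change was not tested. In the single ab4729 pair, 39.2% of members had a peak in siNEG and 50% in siFLI1.

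H3K4me3 was less frequent and did not separate the arms. Its share of members was 36.5% and 39.2% in siNEG and 36.8% and 37.8% in siFLI1, so the siFLI1 values lay between the siNEG values. The difference was −0.507 percentage points (exact permutation p = 1.0, 2 lists against 2, adjusted 1.0). Its sign was not stable: it was 2.26 points at the 133 members found without ETS1 list siFLI1 replicate 2, and 0.845 points without the H3K4me3 list of siNEG replicate 2. Members in both siFLI1 ETS1 lists had 49.5% and 50.5% in siNEG and 53.3% and 52.4% in siFLI1, a difference of 2.86 points, whereas the 163 in replicate 2 only had 29.4%, 33.7%, 27.6% and 30.1%, a difference of −2.76 points. The 14 in replicate 1 only had 57.1% in each list. None of the 11 regions in siNEG lists only had H3K4me3 in any list, and 10 of them had neither mark in any of the 8 lists.

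**Figure D2:**
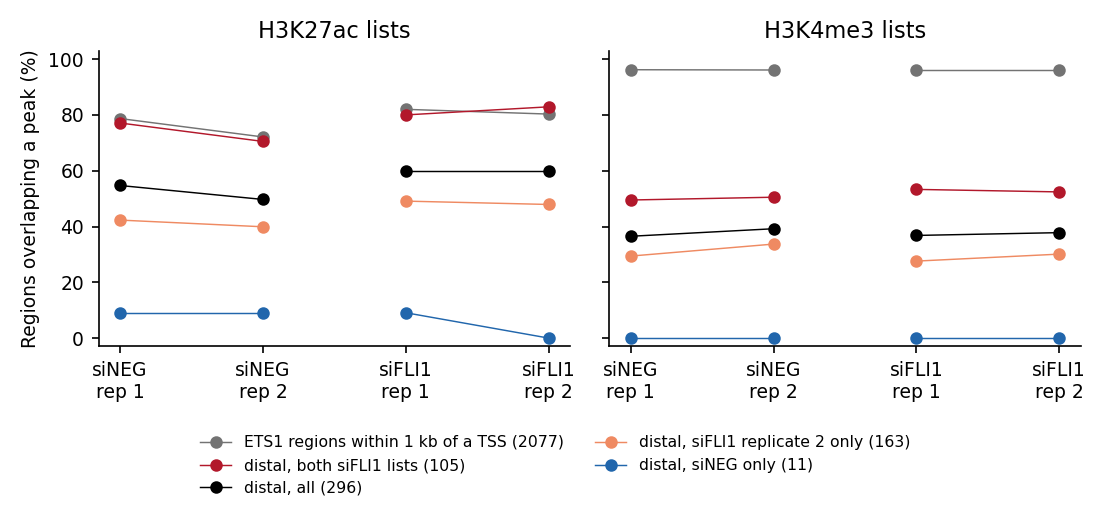
Share of ETS1 regions that overlap a peak in each H3K27ac list (left) and each H3K4me3 list (right), in percent, with 1 point per list and a thin line between the replicates of an arm. Distal regions (black) lie below promoter regions (grey) in all 8 lists, and their H3K27ac shares are 54.7% and 49.7% in siNEG and 59.8% in both siFLI1 lists.

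Members carried both marks less often than promoter regions in every list, and H3K4me3 differed most. Averaged over the 4 lists, 56.0% of members and 78.3% of promoter regions had H3K27ac, a difference of −22.3 ± 1.43 points (SD, n = 4 lists). For H3K4me3 the values were 37.6% and 96.1%, a difference of −58.6 ± 1.26 points. Each had an exact sign-flip permutation p of 0.13 (n = 4 lists), the smallest that 4 lists can give, and 0.25 after adjustment over the 4 tests. The sets were split by distance from a TSS, and H3K4me3 is strongest at gene starts. The direction of the H3K4me3 difference was therefore largely set by the rule. At the 133 members found without ETS1 list siFLI1 replicate 2, the differences were −15.3 and −51.2 points. When overlap was scored at the summit only, they were −14.4 and −59.1 points. Restricted to regions in both siFLI1 ETS1 lists and no siNEG list, H3K27ac was at 77.1%, 70.5%, 80.0% and 82.9% of the 105 members and at 85.1%, 79.4%, 88.7% and 87.2% of 1085 promoter regions, a comparison that was chosen after seeing the data and was not tested.

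The strength of the overlapping peaks differed between the marks. By the authors' fold within their own list, H3K27ac peaks at members had median percentiles of 86.6, 90.3, 89.2 and 90.1 (siNEG replicates 1 and 2, then siFLI1 replicates 1 and 2). At promoter regions the medians were 89.3, 88.9, 91.6 and 90.8. H3K4me3 peaks at members had median percentiles between 47.9 and 49.0, and those at promoter regions between 76.0 and 77.4. H3K4me3 peaks at members were also shorter, with median widths of 1586 to 1750 bp against 3658 to 3982 bp. H3K27ac peaks were wider at members than at promoter regions in all 4 lists, with medians of 2227 to 2457 bp against 1394 to 1924 bp. Thus, where a mark was listed, H3K27ac peaks at members ranked about as high as at promoters and H3K4me3 peaks ranked lower.

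The members differed in the combination of marks they carried. In 56 members both marks were in all 8 lists, and in 62 H3K27ac was in all 4 lists and H3K4me3 in none. In 18 H3K4me3 was in all 4 lists and H3K27ac in none, and 72 (24.3%) had no mark in any list. The rest were listed in some replicates only. Counting a mark as present with 1 list or more, both marks were found at 61.2% of members 1 to 2 kb from a TSS and at 14.7% of those beyond 10 kb, whereas 11.8% and 41.1% had no mark. H3K27ac without H3K4me3 was found at 15.3% of members at 1 to 2 kb, 43.8% at 2 to 5 kb, 44.2% at 5 to 10 kb and 35.8% beyond 10 kb.

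**Figure D3:**
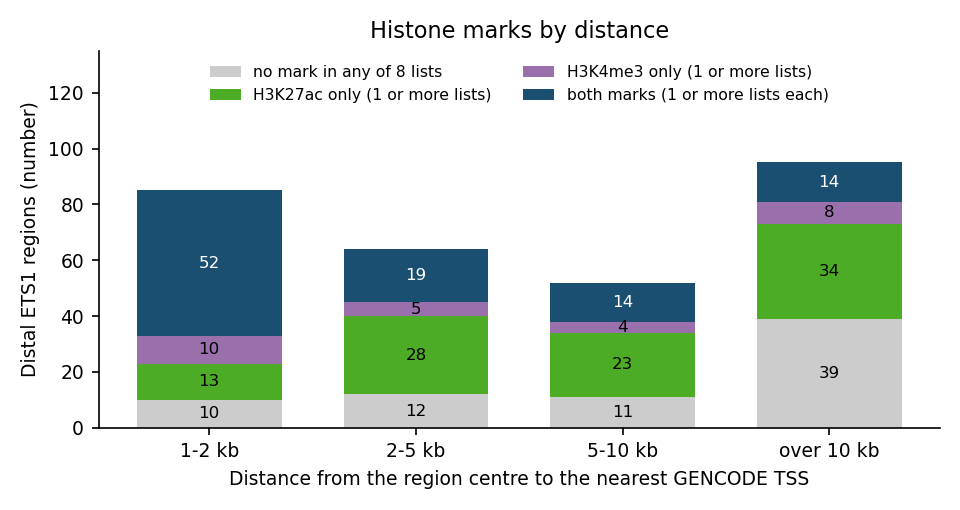
Number of distal ETS1 regions (y axis) by distance of the centre from the nearest TSS (x axis, 4 bins), divided by which histone marks were listed in 1 or more of the 4 lists of each mark. At 1 to 2 kb 52 of 85 regions had both marks, and beyond 10 kb 39 of 95 had none.

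Members in both siFLI1 ETS1 lists with H3K27ac in all 4 lists and H3K4me3 in none have the mark pattern usual for enhancers. They included introns of TNS4, a focal adhesion protein (folds 5.96 and 9.19), and of PLXNB2, a semaphorin receptor (4.35 and 6.76). They also included intergenic regions 20201 bp from NUAK2, a kinase of the AMPK family (6.13 and 9.97), and 31923 bp from APLN, the peptide ligand apelin (6.91 and 10.6). The region near MIR4425 and RUNX3 shown above was another (6.61 and 11.6). These 5 were picked after their values were seen. For the 99 members with H3K27ac in no list, the nearest H3K27ac peak lay at a median of 39177 and 47857 bp in the siNEG lists and 27974 and 30694 bp in the siFLI1 lists. Between 12 and 21 of these 99 had one within 5 kb.

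Members with H3K4me3 far from any annotated start were fewer. Among the 98 members with H3K4me3 in all 4 lists, 17 lay more than 10 kb from a GENCODE TSS. One was an intergenic region in both siFLI1 lists, 20549 bp from the nearest TSS and 42641 bp from ADGRL1 (chr19:14248664-14248991, folds 5.32 and 8.97). Of the 4 replicated H3K27ac lists, both siNEG lists and neither siFLI1 list held this region, whereas both libraries of the ab4729 pair did. The 98 were rich in CpG, with a median G and C content of 70.0% over 300 bp and a median ratio of observed to expected CpG of 0.750. By the limits of 50% for G and C and 0.6 for the ratio, 75 of 98 were CpG-rich, against 22 of the 170 members with H3K4me3 in no list. Of all members 38.5% were CpG-rich, and of promoter regions 88.8%.

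**Figure D4:**
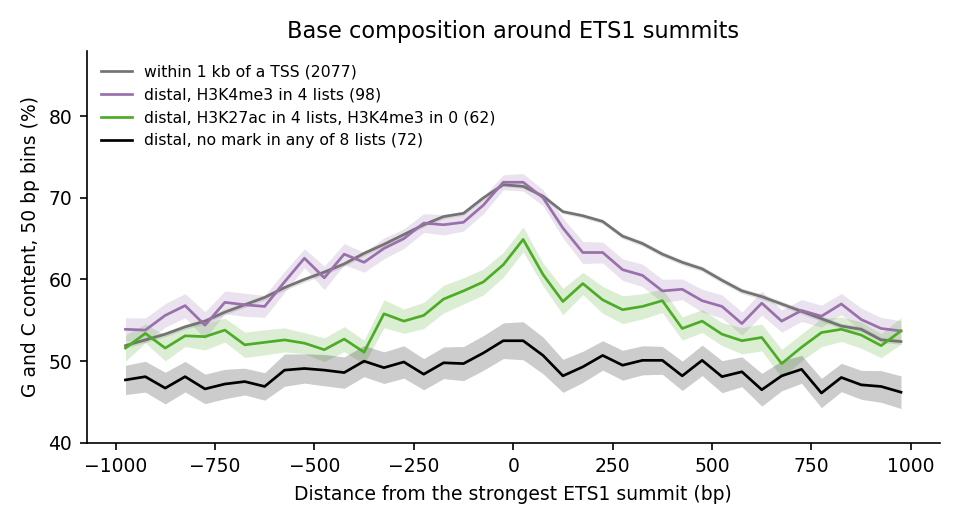
Mean G and C content in 50 bp bins (y axis, percent) against distance from the strongest ETS1 summit (x axis, bp), with bands of 1 SE over regions. Members with H3K4me3 in 4 lists lie close to the promoter regions near the summit, where they reach 71.9%, and below them from 175 to 575 bp on the right (63.3% against 67.8% at 175 bp), whereas members with no mark reach 52.5%.

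H3K27ac differed between the arms at few members. A region was counted when both lists of one arm and neither list of the other held an overlapping peak. In siFLI1 only there were 12 members (4.05%), where 3.10% of all 2706 ETS1 regions and 8.63% of all distal H3K27ac regions were so listed. In siNEG only there were 4 members (1.35%), against 0.480% of all ETS1 regions and 5.69% of distal H3K27ac regions. These shares have different denominators: each distal H3K27ac region has a peak in at least 1 list by construction, whereas 99 of the 296 members had H3K27ac in none. No order between the members and distal H3K27ac regions is therefore read from them.

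The 12 with H3K27ac in both siFLI1 lists only included 5 in both siFLI1 ETS1 lists plus 7 in replicate 2 only. Those in both were an intron of BTBD2 (folds 7.82 and 10.6), a UTR exon of SOX12, an SRY-box factor (5.63 and 7.74), an intron of COL5A3, a fibrillar collagen chain (5.28 and 7.41), a region 3478 bp from BCL9L, a coactivator of beta-catenin (7.12 and 5.75), and one 14434 bp from CXXC5 (5.43 and 5.44). The other named members lay in introns of TSHZ2 (8.56) and ARID3A (4.89), in a UTR exon of LMO4 (5.44), and between genes at 27019 bp from MRPS18A (5.30) and 6882 bp from RGS3 (5.10). The remaining 2, in an intron of HTRA1 and between genes at 1134 bp from MIR193A, fell outside the rule for naming and are given to complete the count. In the single ab4729 pair, 2 of the 12 were listed in siFLI1 only, 1 in both arms and 9 in neither.

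The 4 with H3K27ac in both siNEG lists only were the ARL15 intron named above, the region 42641 bp from ADGRL1, an intron of FKBP5, a cochaperone of steroid receptors (5.49), and a region 2540 bp from BCL11B, a zinc finger factor (5.30). ETS1 was listed in siFLI1 at all 4, as it was at nearly all members. In the ab4729 pair, 1 of the 4 was listed in siNEG only, 1 in both and 2 in neither.

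H3K4me3 was listed in one arm only at fewer members. In siFLI1 only it was listed at 5 (1.69%), where 0.259% of all ETS1 regions were so listed, and in siNEG only at 3 (1.01%), where 0.185% were. The first were introns of COL5A3, RRAS and an lncRNA gene near ELAVL3, a region 9056 bp from EPHX3 and the repeat-bearing chr2:94272942-94273350, whose reads are of uncertain origin. The others lay in LINC01503 and at 10346 bp from FGFR2 and 7064 bp from SOCS3. These 8 were named after their values were seen, and no test of H3K4me3 was made over regions. The shares over all ETS1 regions include the members. They also rest mostly on the 2386 regions within 1 kb of a TSS, 95.2% of which had H3K4me3 in all 4 lists. No order between the members and all ETS1 regions is therefore read from these shares. COL5A3 was the only member at which both marks were listed in both siFLI1 lists and in neither siNEG list.

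ETS sites were rare under the members. CCGGAAG or CCGGAAA, on either strand, lay within 50 bp of the summit in 11 of 296 members (3.72%, exact 95% binomial interval 1.87 to 6.55). In windows of the same length centred 500 bp to each side, 1.01% held it, a difference of 2.70 points. The difference was 5.57 points with windows reaching 100 bp to each side, and 1.36 points for members more than 5 kb from a TSS. Promoter regions had 8.04% (6.91 to 9.29) at the summit and 2.50% in the flanks, and the centres of distal H3K27ac regions 0.604%. The core GGAA alone was in 65.2% of summit windows and 63.9% of flanks. In the 105 members in both siFLI1 lists it was in 74.3% (64.8 to 82.3) and 65.2%. In the 11 members in siNEG lists only it was in 45.5% (16.7 to 76.6) and 54.5%. In the sequences above, the nearest site lay 8 bp from the summit at MIR4425, 4 bp at AKR1C3 and 6 bp at VAX1, but 46 bp at EFR3B. The AKR1C3 window held 2 sites 28 bp apart. They lie in copies of a repeated stretch with the letters gtaggattaact, so the origin of the reads at AKR1C3 is uncertain. The JARID2 window held 2 overlapping sites on opposite strands.

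Among the 11 members with an ETS site, 4 were in both siFLI1 lists, 1050 bp from MIR4425, in introns of AKR1C3 and VAX1 and in a coding exon of CELF5. Another 5 were in replicate 2 only, in introns of MAML3 (fold 6.93), NR4A1 (6.65), ERCC1 (5.71) and ARID3A (4.89) and 46086 bp from BCORL1 (6.12). The other 2 were in siNEG replicate 2 only, in introns of EFR3B (8.15) and JARID2 (6.54), which makes 2 of 11 siNEG-only members (18.2%, interval 2.28 to 51.8). AKR1C3 encodes an aldo-keto reductase that acts on steroids and prostaglandins, and its region had folds of 7.20 and 8.16 and H3K27ac in all 4 lists. JARID2 encodes a partner of the Polycomb repressive complex, and its region had neither mark in any list.

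GC boxes were frequent. GGGCGG lay within 50 bp of the summit in 104 members (35.1%, interval 29.7 to 40.9) and in 11.1% of flanking windows. Promoter regions had 51.9% and 23.8%, and the centres of distal H3K27ac regions 2.15%. The share was 46.7% in members in both siFLI1 lists, 54.1% in members with H3K4me3 in 4 lists and 21.8% in those with H3K4me3 in none. Base composition moved with it: the median G and C content was 67.0% in summit windows of the members and 54.0% in the flanks, and 73.0% and 61.0% at promoter regions. Its part in the motif shares was not tested. Of 8 other motifs searched, none had a summit share more than 2 points above its flank share at the members. These were AP-1 (TGACTCA), TEAD (GGAATG), RUNX (TGTGGT), E-box (CACGTG), NRF1 (GCGCNNGCGC), CTCF (CCANNAGNNGGC), CRE (TGACGTCA) and YY1 (AAGATGG), each on both strands. NRF1 came closest, at 2.03% of summit windows (6 members) and 0.338% of flanks (2 of 592 windows).

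Tandem GGAA repeats were nearly absent. At least 4 consecutive GGAA or TTCC units lay within 1 kb of the centre in 1 of 296 members (0.338%), which was the region 75612 bp from FGF18. The share was 0.193% of promoter regions and 2.21% of distal H3K27ac regions. The FGF18 region was in siFLI1 replicate 2 only, with a fold of 5.26 from 12 tags, and had H3K27ac in all 4 lists and H3K4me3 in none. FGF18 encodes a fibroblast growth factor.

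Nearby genes were counted for 4 lists. Of 19962 protein-coding genes, 932 (4.67%) had a TSS within 100 kb of a member. Of 12 genes that the fusion is known to raise, 2 did, namely CCND1 and BCL11B. The CCND1 region, 1899 bp from the TSS of this cyclin gene, was in siFLI1 replicate 2 only with a fold of 6.51, and both marks were there in all lists. None of 10 genes that it is known to lower had a member within 100 kb. Of 27 ETS family genes 6 did, from ELF2 at 1111 bp through ERF at 26504 bp to EHF, ELF4, ETV2 and ELF5 at 34862 to 61038 bp, and EHF and ELF5 shared 1 region. Of 31 adhesion and matrix genes 4 did, namely TNS4 at 5149 bp, COL1A1 and ITGA3, which shared a region, and LAMC1. Distance does not show that a region acts on a gene, and the peak lists hold no expression values.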

How the data were processed

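Peak lists from 14 libraries of TC-32 cells were used, and the 8 input libraries were not used. Per the submitters' processing notes, the tools named were cutadapt 4.4, BWA 0.7.17, Picard 2.17.11 and MACS2 2.1.1, with the builds GRCh38/hg38 and dm6. Settings and control libraries are not given in the sources used here. Each list was deposited per library, not for pooled replicates. In the deposited lists, the authors gave each peak a fold, a ratio of its height to the local background, and the −log10 of a p-value and of a q-value. The deposited score was not used. The authors' values served only for description, ranking and filtering. The strongest summit of a merged region was taken by −log10 q across the ETS1 lists. Members were named by their highest fold in any ETS1 list, although the background differed between lists. Other ranking and filtering stayed inside 1 list. Presence in a list depends on how many peaks pass the caller's limit, so it is not a measure of occupancy. Library depth is not given in the sources used here. Tag heights at ETS1 summits were recovered from fold and −log10 p under the MACS2 formulas, and came out whole (within 0.01 of the deposited −log10 p) for 96.6% to 100% of peaks.

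Members were found by the stated rule with Python 3 scripts. The members, gene lists and tests were chosen with earlier results of these data known, and the motifs other than the ETS site and GGAA were added later. Overlap was 1 bp or more. Arms were compared by an exact two-sided permutation test over lists, and distal with promoter regions by an exact two-sided sign-flip test within lists. The only test over regions was the chi-square of ETS1 tag heights between the replicate lists of an arm. No test of marks or motifs was made over regions. Shares carry exact (Clopper-Pearson) 95% binomial intervals, which cover counting error only. Named members were, per presence class, the 6 of highest fold; the 8 of highest fold with an ETS site; up to 10 per arm with H3K27ac in both lists of that arm only; all in both siNEG lists; those within 100 kb of a listed gene; and the 3 nearest each side of the 1 kb limit. A member that this rule names is not reported here. The steps were tested on simulated data, where membership was recovered for all 400 sites. Sequences were read from hg38 and genes from GENCODE release 44; RefSeq starts came from a table on hg38. Coordinates count from 1.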

Additional observations from a re-analysis of the deposited data

How the results depend on the processing

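The number of members depended on the lists and on the distance. It was 147 with a limit of 5 kb and 32 when each list was limited to as many of its strongest peaks as the shortest list held. Leaving out 1 ETS1 list gave 133 to 300, where 133 was without siFLI1 replicate 2. Summits, a −log10 q of at least 5 and overlap of 50% of the shorter interval kept it within 1.5 times. The H3K27ac difference between arms stayed positive under all 13 alternatives (5.07 to 10.1 points). The H3K4me3 difference ran from −1.86 to 2.26 points when 1 list was left out. It was positive without the H3K4me3 list of siNEG replicate 2 (0.845) and without the ETS1 list of siFLI1 replicate 2 (2.26). The distal minus promoter difference in H3K27ac was −14.4 points at summits only and −31.0 points for members more than 5 kb from a TSS, and in H3K4me3 it was −74.0 points for the latter. With 1 list left out, the first ran from −22.9 to −15.3 points and the second from −59.2 to −51.2 points, and −15.3 and −51.2 were the values without the ETS1 list of siFLI1 replicate 2. Members with H3K27ac in one arm only fell to 5 (siFLI1) and 2 (siNEG) beyond 5 kb, by the smaller number of members. These counts, and the mark shares without an ETS1 list, were added after seeing the data. The ETS site at summits minus flanks was 5.57 points in windows reaching 100 bp to each side and 1.36 points for members beyond 5 kb, and no member had a repeat of 6 units (0%). The causes of the other changes were not tested.

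The replicate numbers of the labels do not say that same-numbered lists were paired. With the replicate number as a block, the H3K27ac difference was 7.60 points (exact sign-flip permutation p = 0.50 over 2 pairs) and the H3K4me3 difference −0.507 points (exact p = 1.0), and no call changed. Tags at summits were mostly 9 to 39 at members, and how far they set which regions reached a list was not tested.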
